A study of Caenorhabditis elegans with 6 samples.

Results

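FMRFamide-like peptide (flp) genes and genes for receptors of neuropeptides were examined in the nematode Caenorhabditis elegans, in active L3 larvae and in larvae in L3 lethargus. The members were chosen by name, with earlier results of these data known. They were every gene called flp, npr, frpr or dmsr followed by a number, other than flp-11, flp-13, flp-18, flp-21, flp-24 and npr-1. This gave 94 of the 17118 genes with a probe set of their own, namely 20 flp genes and 74 receptor genes (43 npr, 17 frpr and 14 dmsr). Each gene was read from 1 probe set, the one with the highest mean over the 6 arrays where a gene had several. A further 12 genes with names of these kinds, flp-20 among them, were not analysed here.

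FMRFamide-like peptides are short neuropeptides that end in arginine and phenylalanine amide and are cut from larger precursors in neurons. They are packed into dense core vesicles and act over a distance on G protein-coupled receptors of other cells, which in the worm carry names such as npr (neuropeptide receptor), frpr (FMRFamide peptide receptor family) and dmsr (related to the myosuppressin receptors of Drosophila). In worms such peptides adjust feeding, egg laying, locomotion and arousal. Some of them, released from the RIS neuron, are known to promote the quiet state of lethargus, and some from the ALA neuron bring about sleep after stress.

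Both groups were the wild-type strain N2, variety Bristol, fed the bacterial strain DA837 and kept at 20 °C after a hatching arrest without food. The L3 group was picked by hand at 32 hours after feeding among active animals. The L3 lethargus group was picked at 37 hours among animals that neither moved nor fed, so age and behaviour differ together between the groups and cannot be told apart. Each group held 3 arrays, each from a pool of 200 whole animals, after 1 of 4 pools per stage was set aside for its RNA quality. In whole animals, fewer cells of a type and less RNA per cell cannot be told apart, and since separate cultures are not stated for the pools, p-values cover the spread from pool to pool, which may be technical.

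Over the whole array 218 of 22548 probe sets passed limma's test with an adjusted p no higher than 0.05, which is what called means here. That is 0.967% of those tested, with 0.754% higher and 0.213% lower in lethargus. Array medians lay between 7.09 and 7.19 on the log2 scale. Of 15 pan-neuronal markers, 14 lay above the range of the background controls, with rgef-1 within it, and 0 were called (0 with an unadjusted p under 0.05), with a median change of -0.07. Of the 6 arrays, L3 replicate 3 moved the count of calls most when left out, to 5.04% of probe sets, so results that rest on it are given both ways.

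A single member, the receptor gene npr-40, was called. Its signal rose 4.10-fold in lethargus (log2 change 2.04, 95% interval 1.44 to 2.63), and none of the other 93 members was called in either direction by limma over all probe sets. The count of 1 of 94 stands beside the 0.967% called over the array. The count of members with an unadjusted p under 0.05 was also near the background, at 9 (6 higher and 3 lower in lethargus), where the share over all probe sets was 10.6%. The 3 arrays of each stage did not overlap for 14 members, 8 higher and 6 lower in lethargus, and over all probe sets the share was 14.4% (7.81% higher and 6.57% lower). The median log2 change, lethargus minus L3, was 0.07 among the flp genes, 0.03 among the receptor genes and 0.02 over all probe sets.

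The intervals say how large a difference the 6 arrays leave possible. For 91 of the 94 members, all but npr-40, npr-41 and npr-36, the 95% interval of the change lay within 2-fold in both directions, against 88.3% of all probe sets. All 20 flp genes were among the 91. Within 1.5-fold, the interval lay for 13 of the 20 flp genes and 44 of the 74 receptor genes, or 65.0% and 59.5%, against 59.6% of all probe sets. These intervals hold for each gene on its own and are not adjusted for the number of genes. Near background the measured differences can be compressed, so for dim members a narrow interval bounds the signal more than the transcript.

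**Figure D1:**
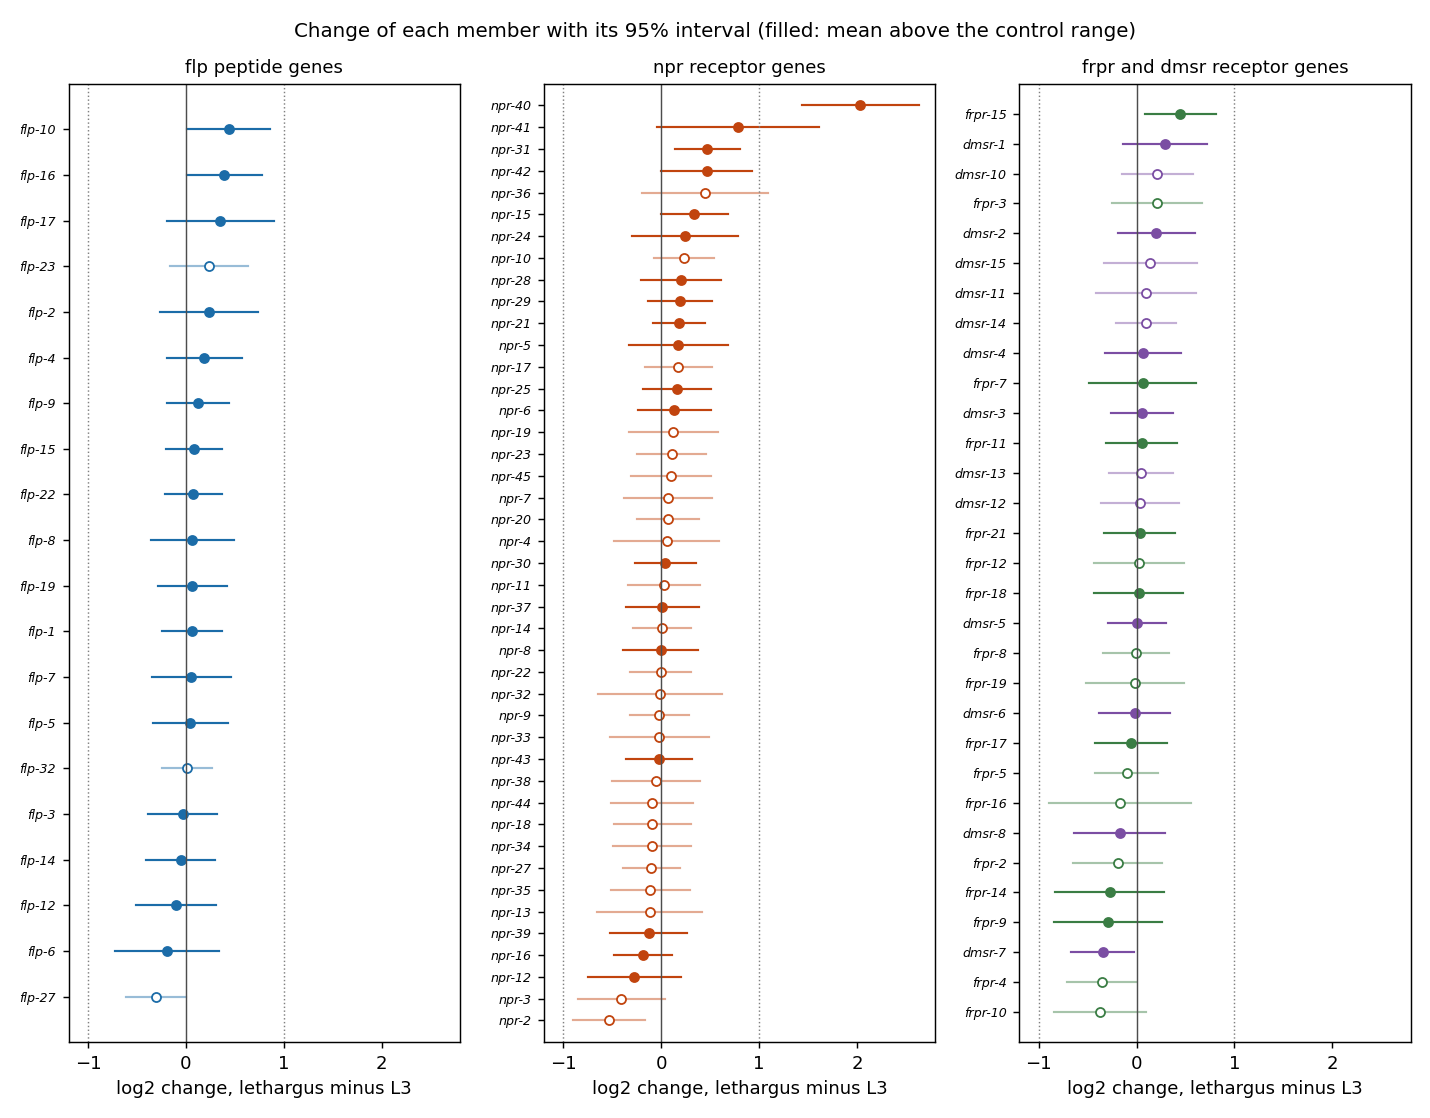
Change of each of the 94 members (log2, lethargus minus L3, x axis) with its 95% interval from limma, by family, with dotted lines at 2-fold. Filled points have a mean above the control range. npr-40, at 2.04, is the only gene whose whole interval lies beyond 2-fold.

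Levels were set against 27 control probe sets that match Bacillus subtilis transcripts, whose values ranged from 2.42 to 5.73 on the log2 scale. The highest value was on L3 replicate 2, and the highest on each of the other arrays lay between 5.21 and 5.54. A member was taken to lie above background where its mean over the 6 arrays was higher than 5.73. By this measure 52 of 94 members, or 55.3%, lay above the control range, against 63.2% of all probe sets. Of the flp genes 17 of 20 lay above it and of the receptor genes 35 of 74, or 85.0% and 47.3%. A level depends on the probes as well as on the transcript, so levels of different genes are not ranked by amount here.

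The 17 flp genes above the control range lay above it on every array, with gene means from 7.56 to 11.64. The other 3, flp-23, flp-27 and flp-32, lay within it on every array, with values from 3.45 to 5.64. Among the receptor genes 27 were above the control range on every array, 32 were within it on every array and 15 crossed it. The shares above it were 19 of 43 for npr, 8 of 17 for frpr and 8 of 14 for dmsr. On the probe set chosen for each gene, the dmsr family had no member between these states. dmsr-3 lay near the limit, with values from 5.78 to 6.12, and a second, dimmer probe set of dmsr-7 crossed it, from 5.51 to 6.08. dmsr-1 to dmsr-8 were above the control range on all 6 arrays, and dmsr-10 to dmsr-15 were within it on all 6, with values from 2.42 to 4.44. In the gene order of assembly WBcel235, dmsr-10 to dmsr-15 lie side by side on chromosome V, with at most 1 other protein-coding gene between a member and the next.

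**Figure D2:**
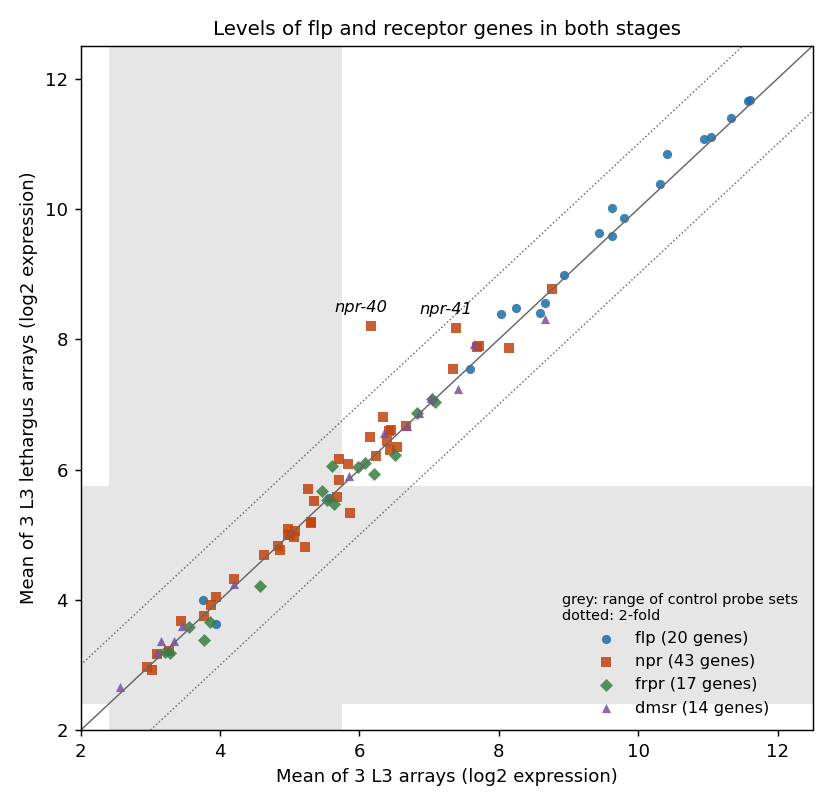
Mean log2 expression of each member on the 3 L3 arrays (x axis) and the 3 L3 lethargus arrays (y axis), with the control range from 2.42 to 5.73 in grey and dotted lines at 2-fold. Of the flp genes 17 of 20 lie above the control range, and npr-40 is the sole gene beyond the 2-fold line.

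npr-40 carries the name of the neuropeptide receptor family. Its log2 values were 6.50, 6.31 and 5.69 in L3 and 8.06, 7.96 and 8.59 in lethargus. All lethargus arrays were above all L3 arrays, by more than the spread within either stage. L3 replicate 3, the lowest array, was within the control range, but above the highest control value of that array itself, 5.54. The L3 mean was 6.17 ± 0.42 (SD, n = 3) and the lethargus mean 8.20 ± 0.34 (SD, n = 3). Their difference of 2.04 (SE 0.25) had an adjusted p of 0.0142 in limma. Without L3 replicate 3 the difference was 1.80 (adjusted p 0.00418). The call also held without L3 replicate 1 (0.0372), whereas it ended without L3 replicate 2 (0.0731) and without lethargus replicate 1, 2 or 3 (0.0789, 0.0565 and 0.0587), with changes from 1.84 to 2.16. The gene has 1 probe set, which is not marked as able to match related genes.

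Marker lists of some other cell types also leaned to higher levels in lethargus. All 6 pharyngeal muscle markers and all 7 germline markers had a positive change, with medians of 0.25 and 0.35, and 8 of 10 sperm markers did, with a median of 0.29, and in each list 0 were called (2, 1 and 0 with an unadjusted p under 0.05). Without L3 replicate 3 the sperm list had a median of 0.60, with 9 of 10 positive and 2 called higher, while the other 2 lists had medians of 0.32 and 0.47 and 0 called. The median level of the pharyngeal muscle markers ran from 9.82 to 10.03 in L3 and from 10.14 to 10.34 in lethargus, and that of the germline markers from 9.45 to 9.70 and from 9.72 to 9.99. The median of the sperm markers was 6.26 on L3 replicate 3, where npr-40 was lowest, against 3.96 and 4.45 on the other L3 arrays. By the mean over the 6 arrays, 7 of 10 sperm markers lay within the control range, and 0 of the pharyngeal muscle and germline markers did. Array by array, 4 of the sperm markers were within it throughout and 5 crossed it. The part of these marker lists in the rise of npr-40 was not tested.

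npr-41 had the next largest difference, with an interval that reached from no difference to about 3-fold. Its values were 7.92, 7.59 and 6.64 in L3 and 8.11, 7.78 and 8.61 in lethargus. The stages overlapped, because L3 replicate 1 was above lethargus replicate 2, and L3 replicate 3 was the lowest array. The change was 0.78 (95% interval -0.04 to 1.61, adjusted p 0.513), and 0.41 without L3 replicate 3.

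Among the receptor genes above the control range in at least 1 stage, 3 more had a higher mean in lethargus with an unadjusted p under 0.05. They were npr-31, npr-42 and frpr-15, and none passed the adjustment. npr-31 had 6.12, 6.50 and 6.38 in L3 and 6.78, 6.91 and 6.72 in lethargus. The stages did not overlap, but the gap between the nearest arrays was smaller than the range within L3 (change 0.47, SE 0.14, adjusted p 0.257). frpr-15 had 5.89, 5.39 and 5.53 in L3 and 6.01, 6.06 and 6.08 in lethargus. The lethargus arrays were close together and above the control range, while L3 replicates 2 and 3 were within it (change 0.45, adjusted p 0.329). npr-42 had 5.69, 5.76 and 5.65 in L3 and 5.81, 6.10 and 6.57 in lethargus, which differ by 0.46 (adjusted p 0.473). It lay at the edge of the control range in L3.

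Of the receptor genes with lower means in lethargus none was called. npr-2 had 6.00, 5.97 and 5.63 in L3 and 5.20, 5.28 and 5.52 in lethargus, the most negative change of the 94 members at -0.53 (SE 0.16, adjusted p 0.239). Every lethargus array was below every L3 array, and all lethargus arrays lay within the control range. Without L3 replicate 3 the change of npr-2 was -0.65 (adjusted p 0.0707). npr-12, frpr-9 and frpr-14 had changes of -0.28, -0.29 and -0.27, with overlapping arrays and adjusted p-values of 0.796, 0.828 and 0.852.

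**Figure D3:**
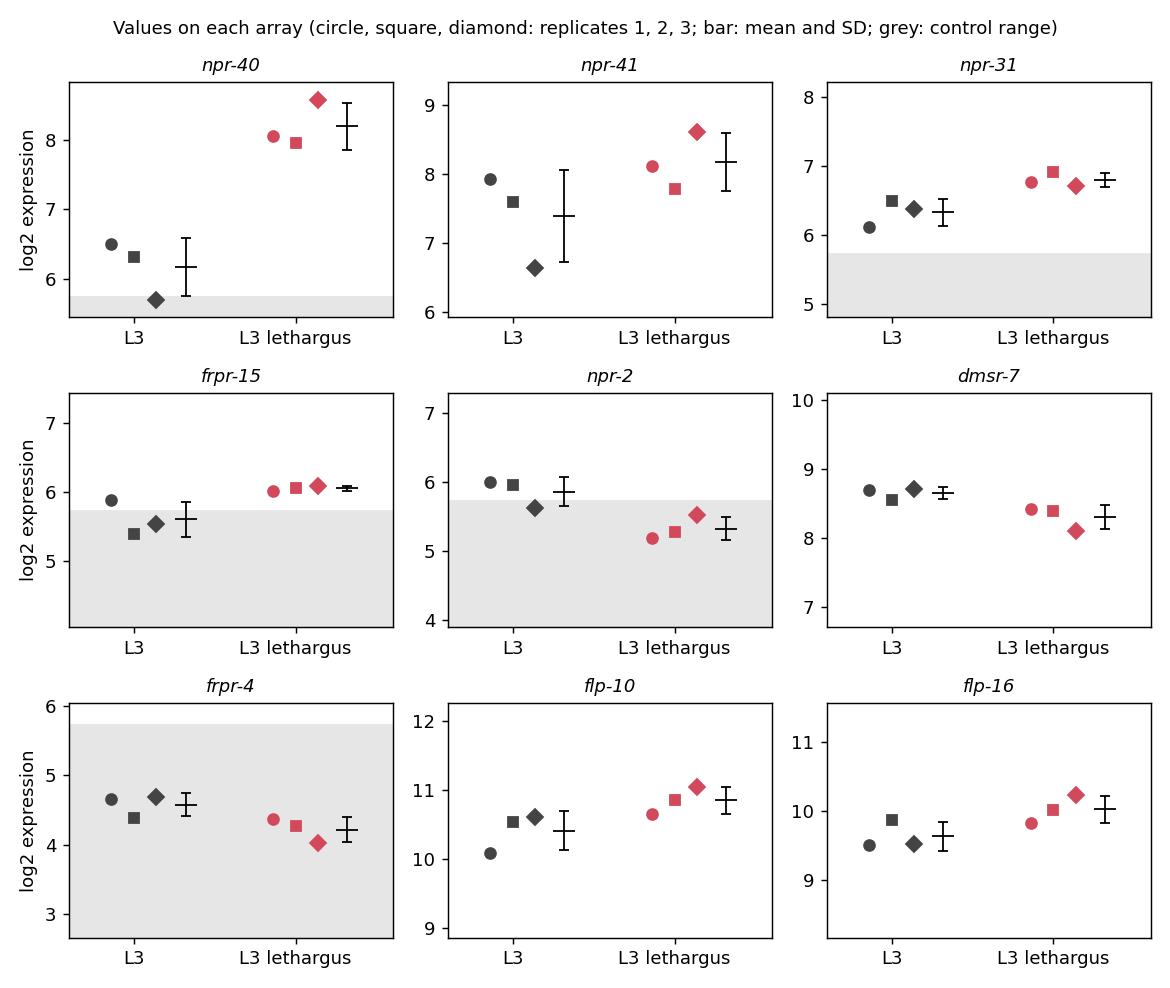
Log2 expression of 9 members on each array (y axis, the same span in every panel), with L3 in dark grey, L3 lethargus in red, the mean and SD of each stage beside them and the control range shaded. npr-40 alone has a gap between the stages that is wider than the spread within each.

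The receptor probe sets with the strongest signal, which is no order of transcript amounts, were those of npr-37, dmsr-7, npr-12, npr-5 and npr-29, and all 5 had changes within 0.35 of zero. The changes of npr-37, npr-5 and npr-29 were 0.01, 0.18 and 0.19, with adjusted p-values from 0.795 to 0.996. dmsr-7, the receptor gene among them with the most negative change, had 8.70, 8.56 and 8.71 in L3 and 8.43, 8.40 and 8.10 in lethargus. The stages did not overlap, and the change of -0.35 (95% interval -0.67 to -0.03) had an adjusted p of 0.422. A dimmer probe set of dmsr-7 had -0.19 with an adjusted p of 0.852.

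The flp genes encode the peptide precursors, and no difference between the stages was called for them. Their changes ran from -0.31 for flp-27, within the control range, to 0.44 for flp-10. In either direction 0 of 20 were called and 2 had an unadjusted p under 0.05, near the shares of 0.967% and 10.6% over all probe sets. flp-10, one of whose peptides acts with that of flp-17 on the receptor EGL-6 to inhibit egg laying, had 10.08, 10.53 and 10.61 in L3 and 10.65, 10.84 and 11.03 in lethargus. The stages did not overlap but nearly met, and the change was 0.44 (95% interval 0.01 to 0.86, adjusted p 0.457). flp-16 had 9.50, 9.87 and 9.51 in L3 and 9.82, 10.01 and 10.22 in lethargus. L3 replicate 2 was above lethargus replicate 1, and the change was 0.39 (95% interval 0.01 to 0.77, adjusted p 0.460).

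The flp probe sets with the strongest signal were those of flp-1, flp-15, flp-22, flp-19 and flp-9, and their intervals were among the narrowest. flp-1, a peptide gene of the AVK interneurons that acts on locomotion, had 11.70, 11.64 and 11.47 in L3 and 11.80, 11.66 and 11.55 in lethargus. The values of the stages interleaved, with a change of 0.06 (95% interval -0.24 to 0.37). The changes of flp-15, flp-22, flp-19 and flp-9 were 0.08, 0.07, 0.07 and 0.13, with interval bounds from -0.28 to 0.45. Probe sets of flp-1, flp-15 and flp-9 are marked as able to match related transcripts. Of the others, flp-17, made in the BAG sensory neurons, had a change of 0.35 with an interval from -0.20 to 0.90, the highest upper bound of the family. Without L3 replicate 3 the change of flp-17 was 0.13 (95% interval -0.33 to 0.60). flp-14 had a change of -0.05 with all arrays.

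Ligands and receptors known to act together were set side by side. The peptides of flp-2 activate FRPR-18, a pair known to promote arousal in lethargus. flp-2 had 8.61, 8.33 and 7.80 in L3 and 8.62, 8.47 and 8.34 in lethargus, with L3 replicate 3 below all other arrays. Its change was 0.23 (95% interval -0.27 to 0.74), and 0.01 without that array. frpr-18 had 6.10, 6.15 and 6.00 in L3 and 5.72, 6.46 and 6.14 in lethargus, which straddle the L3 values, with a change of 0.02 (95% interval -0.43 to 0.48). A second probe set of each gene had 0.04 and 0.07.

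DMSR-1 and FRPR-4 are receptors for peptides of flp-13, which the ALA neuron uses to bring about sleep after stress. dmsr-1 had 7.68, 7.71 and 7.53 in L3 and 7.95, 7.59 and 8.26 in lethargus, with overlapping stages and a change of 0.29 (95% interval -0.14 to 0.72, adjusted p 0.725). frpr-4 had 4.66, 4.38 and 4.68 in L3 and 4.37, 4.26 and 4.02 in lethargus, all within the control range, with a change of -0.36 (adjusted p 0.460). flp-13 itself, which is no member, had a change of 0.06 (95% interval -0.34 to 0.46).

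NPR-4 and NPR-5 respond to peptides of flp-18, which is no member and had a change of -0.16 (adjusted p 0.814). npr-5 was above the control range with a change of 0.18, and npr-4 was within it on every array with 0.06. NPR-22 is known as a receptor for peptides of flp-7. The change of flp-7 was 0.06 (95% interval -0.35 to 0.46), and that of npr-22, within the control range on every array, was -0.01. NPR-3 responds to peptides of flp-15. npr-3 had 5.55, 5.14 and 4.97 in L3 and 4.96, 4.56 and 4.92 in lethargus, where all lethargus arrays were lower but every value lay within the control range (change -0.41, adjusted p 0.548). npr-11 and frpr-3 had changes of 0.03 and 0.21, the first within the control range on every array and the second on all but 1.

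The flp genes were low on 1 array, L3 replicate 3. Of the 20 flp genes, 16 were lower there than on both other L3 arrays, and 11 were lower there than on any of the other 5. The corresponding shares over all probe sets were 37.1% and 13.8%, against 80.0% and 55.0% of the flp genes. The median difference of L3 replicate 3 from the mean of the other L3 arrays was -0.20 among the flp genes, -0.12 among the receptor genes and -0.02 over all probe sets. It was largest for flp-2 and flp-17, at -0.67 and -0.66, and positive for flp-10, at 0.30. The signs of the flp changes moved with that array: 15 of 20 were positive with all 6 arrays, with a median of 0.07, and 11 of 20 without it, with a median of 0.01. As shares these are 75.0% and 55.0%, where 53.6% and 52.9% of all probe sets had a positive change.

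Other neuronal genes were lower on that array than on the other L3 arrays as well. Of the 6 peptide and receptor genes left out of the members, 5 were lowest there among the L3 arrays, with a median difference of -0.22. Of 28 receptor genes for other peptides 18 were, with a median of -0.19. Of all 6 arrays, 3 of the 6 and 8 of the 28 were lowest there. Of the pan-neuronal markers, 10 of 15 were lowest there among the L3 arrays, with a median difference of -0.16. Of all 6 arrays, 3 of the 15 were lowest there (20.0%, against 13.8% of all probe sets). Epidermal and glial markers were also lower there than on the other L3 arrays, with medians of -0.46 and -0.34. Of all 6 arrays, 1 of 8 epidermal and 3 of 6 glial markers were lowest there. The epidermal median deviation from each gene's mean was 0.11 there and 0.62 on L3 replicate 1. Pharyngeal muscle and intestine markers were higher there, with medians of 0.15 and 0.19. Germline and sperm markers were higher there, with medians of 0.32 over 7 and 1.27 over 10 genes, 0 of which were lowest on that array among the L3 arrays. The part of these differences in the levels of the flp genes was not tested.

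**Figure D4:**
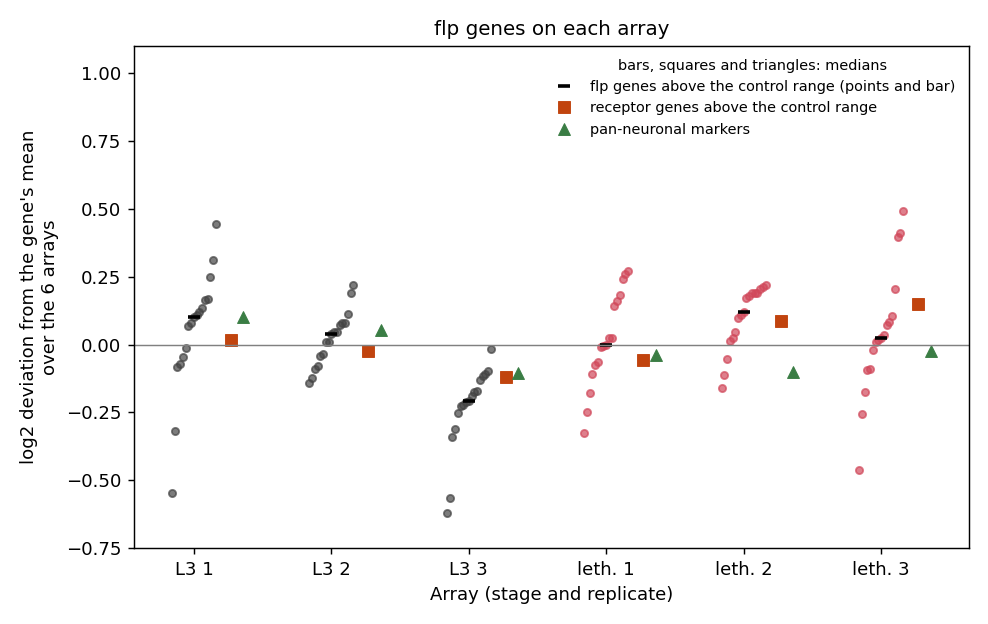
Deviation of each of the 17 flp genes above the control range from its own mean over the 6 arrays (log2, y axis), by array, with L3 points in dark grey, L3 lethargus points in red and the median as a bar. Squares and triangles give the medians of 35 receptor genes above the control range and of 15 pan-neuronal markers. The median of the flp genes is lowest on L3 replicate 3, at -0.21.

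Of the 94 members, 11 had several probe sets, and no probe set of any of these was called. The probe sets of flp-1, flp-8, flp-15 and npr-16 differed in sign. For npr-16 the brighter had -0.19 and the dimmer 0.21 (adjusted p 0.760 and 0.903).

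Genes that make, release and break down neuropeptides were read for comparison. Of 22 genes for peptide processing, release and breakdown, 0 were called, and the list median was 0.03. An unadjusted p under 0.05 was found for 2 of them, both lower in lethargus. egl-3 and egl-21, which encode the convertase and the carboxypeptidase that cut the precursors, had changes of 0.03 and -0.09. sbt-1, a chaperone gene of the convertase, had -0.06, and pghm-1, which acts in the amidation of peptides, had 0.07. cpd-1, of the same list, had a change of -0.69 (adjusted p 0.219 in limma). Every lethargus array of cpd-1 was below every L3 array, and its probe set is marked as able to match related transcripts. nep-1, named here after its values were seen, encodes a neprilysin-type peptidase. It had 11.28, 11.19 and 9.67 in L3 and 8.74, 8.09 and 8.74 in lethargus, where the stages did not overlap and L3 replicate 3 lay between the other arrays of both stages. Its change was -2.19 (SE 0.43, adjusted p 0.0816), and -2.71 (adjusted p 0.000986) without L3 replicate 3. Its probe set is marked as able to match related transcripts.

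Of 28 receptor genes for other peptides, 0 were called, where 1, egl-6, had an unadjusted p under 0.05, with a list median of 0.03. egl-6 encodes the receptor for the flp-10 and flp-17 peptides named above, and its change was 0.36 (adjusted p 0.443), with both stage means within the control range. Of 20 genes for G protein signalling in neurons, 0 were called and 0 had an unadjusted p under 0.05, with a median of 0.02. The peptide and receptor genes left out of the members were not called either, and 0 of these 6 had an unadjusted p under 0.05. flp-11, the sleep peptide gene of RIS, had a change of -0.06, flp-24 had 0.03, flp-21 had 0.20 and npr-1, which encodes a receptor for flp-18 and flp-21 peptides, had 0.12.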

How the data were processed

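Per the labels' protocols, total RNA of pooled larvae was amplified with the Nugen Ovation system and hybridized to an Affymetrix array of C. elegans genes. The deposited values are log2 expression per probe set, made by the authors with RMA, per the submitters' processing notes. Its version is not given in the sources used here. Amplification and background correction act before deposit and can compress differences near background.

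Of 22625 probe sets, 77 controls were left out. Genes were named from the array annotation (20766 probe sets with 1 gene, 887 with several, 895 with none). All 94 members matched RefSeq WBcel235. limma 3.58.1 in R 4.3.3 compared the 3 lethargus with the 3 L3 arrays on all 22548 probe sets (lmFit, eBayes, two-sided, Benjamini-Hochberg), without further normalization. The design text names R/maanova, not run here. Fits were tested on simulated data.

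Members and lists were chosen with earlier results of these data known. Named members are those called, those with an unadjusted p under 0.05 and the 5 with the strongest signal of each kind. Added to these were the 5 most positive and 5 most negative changes among members with the mean of at least 1 stage above the control range. A list of genes of known ligand and receptor pairs or of sleep was also named. npr-16, npr-36, flp-8, flp-17, flp-23, flp-27, flp-32, the other dmsr genes, cpd-1 and nep-1 fall outside this rule and were named after their values were seen. Alternatives were normalization, a filter on dim probe sets, variance trend, array weights, a block for pool number, other probe sets and arrays left out. Marker and pathway lists held 11 neurotransmitter, 9 body wall muscle, 9 intestine, 8 epidermis and 6 glia genes beside those in the text.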

Additional observations from a re-analysis of the deposited data

How the results depend on the processing

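The rise of npr-40 kept its direction in every alternative, with changes from 1.80 to 2.20 with an array left out. It kept its call with a second quantile normalization, a common median, dim probe sets left out, a variance trend and array weights. The mean of all probe sets leaves its values as they are, because the gene has 1 probe set. The number of members called higher was 0 to 1 with an array left out, and the number called lower was 0 under every alternative. Pool numbers are shared between the stages, but same-numbered pools did not deviate together (correlations of 0.26, -0.24 and -0.29), so they were not taken as pairs. With the pool number as a replicate block, the number of members called higher was 0 (npr-40 with an adjusted p of 0.141), and 56 probe sets of the array were called higher and 3 lower. Array weights gave 262 probe sets higher and 231 lower. Robust fitting with a variance trend gave 77 lower. With an array left out these counts ran from 75 to 573 higher and from 0 to 563 lower, the high ends without L3 replicate 3. The cause was not tested. Of 396 comparisons of the named members with an alternative, 24 changed sign, all with an unadjusted p of 0.05 or more in both fits. The number of members above the control range ran from 52 to 57 with an array left out. It was 62 with the range cut at the 95th percentile of the controls. It was 50 where every array had to exceed its own highest control. With probe sets that may also detect related transcripts excluded, it was 45. That count is of fewer members, because genes with no other probe set, such as flp-6 and npr-37, dropped out. Members within the control range have little signal over background, which limits what can be said of their changes.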

Other observations

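npr-40 lies on the X chromosome between hex-5 and ntr-2 in the gene order of assembly WBcel235. This was looked up after the rise of npr-40 was seen. hex-5 was also called higher in lethargus, with a log2 change of 1.07 and an adjusted p of 0.0388 from limma. That call held without L3 replicate 3 (adjusted p 0.0168) and ended without any one of the other 5 arrays (0.0583 to 0.191). ntr-2, a receptor gene for a peptide of the vasopressin and oxytocin family, had a change of 0.02 (adjusted p 0.994), with both means within the control range. The next gene on either side, lips-8 and mrp-5, had changes of -0.22 and -0.11 (adjusted p 0.854 and 0.905). No coordinates are given, because the deposited table names no genome build.

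Among neurotransmitter genes, which are markers of neuron classes, 0 of 11 were called and 1 had an unadjusted p under 0.05. This was tdc-1, which encodes the tyrosine decarboxylase that makes tyramine, at -0.47 (adjusted p 0.340). The epidermal marker rol-6, a cuticle collagen gene, fell by 1.05 on the log2 scale (adjusted p 0.0488), as the sole called gene among the markers of 9 cell kinds. That call too held without L3 replicate 3 (adjusted p 0.0121) and ended without any one of the other 5 arrays (0.111 to 0.234).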
